A study of Mus musculus with 2 samples.

Results

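The 10 genes described here encode transcription factors of the AP-1 family and its close relatives: Fos, Fosb, Fosl1 and Fosl2, Jun, Junb and Jund, Batf and Batf3, and Atf3. They were taken by name, 10 of the 21938 protein-coding genes of the annotation, and the H3K27ac peaks assigned to each were those that overlapped its gene body plus 50 kb on either side. These windows held 104 of the 29543 peaks of replicate 1 and 92 of the 29345 peaks of replicate 2. The study profiled H3K27ac, an acetylation of histone H3 found at active promoters and enhancers, with ChIP-seq. The cells were bone-marrow-derived macrophages of the C57BL/6J mouse strain without stimulation, in 1 group of 2 biological replicates. Each library was started from 10 ng of DNA. The replicates are separate biosamples listed under a single donor, and sex and age were not collected, so the spread between them may be technical and may leave out differences between animals.

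AP-1 is a dimer of basic leucine zipper proteins. Jun proteins can pair with one another or with a Fos, Batf or Atf partner, whereas Fos proteins need a Jun partner to bind DNA. Several of these genes are immediate early genes, which signalling through MAP kinases and calcium or cAMP switches on within minutes. In macrophages AP-1 proteins bind enhancers together with PU.1 and C/EBP factors and take part in the response to bacterial products.

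Marked genes are those with a peak within 1 kb of an annotated start in replicate 1 and in replicate 2. The highest-fold peak there is called its promoter peak. The fold of a peak is the authors' own enrichment ratio, and its percentile is the share of peaks of the same list with a lower fold. With 1 group and no comparison between conditions, all values below are descriptions. The sources used here do not give the read depth, so a region without a peak lay below the authors' threshold and need not lack H3K27ac. The label of the cells was checked first: 10 of 10 macrophage marker genes were marked, against 0 of 3 matched T cell, 0 of 4 B cell, 0 of 4 neutrophil and 0 of 4 fibroblast markers. Of 4 dendritic cell markers 1 was marked, Xcr1, with folds of 23.6 and 20.0.

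The reference sequences of 6 promoters are shown, since their members span the range of the results: Jun, Fos, Junb and Atf3 carried the promoter peaks of highest fold, Fosb had a peak only inside the gene, and Batf3 had none. They come from the RefSeq promoter table of build GRCm38.p6, which held 9 of the 10 genes, and run from 250 bases before the start to 50 after it on the strand of the gene. Jun lies at chr4:95052173-95052472 (reverse), Fos at chr12:85473640-85473939 (forward), Junb at chr8:84978699-84978998 (reverse), Atf3 at chr1:191183284-191183583 (reverse), Fosb at chr7:19309996-19310295 (reverse) and Batf3 at chr1:191098164-191098463 (forward). Capitals mark the words searched on both strands: TGANTCA (AP-1), TGACGTCA (the full cAMP response element), its 5-letter end TGACG, which lies within it, GAGGAA (PU.1), TTGCNNAA (C/EBP), TATAAA, the TATA box, and the CArG box of serum response factor.
Jun: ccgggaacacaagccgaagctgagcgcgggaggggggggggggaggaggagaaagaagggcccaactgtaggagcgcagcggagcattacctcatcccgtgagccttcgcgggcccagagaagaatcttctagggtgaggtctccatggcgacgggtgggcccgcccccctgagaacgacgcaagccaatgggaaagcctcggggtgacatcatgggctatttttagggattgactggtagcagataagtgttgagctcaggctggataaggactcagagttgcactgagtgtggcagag
Fos: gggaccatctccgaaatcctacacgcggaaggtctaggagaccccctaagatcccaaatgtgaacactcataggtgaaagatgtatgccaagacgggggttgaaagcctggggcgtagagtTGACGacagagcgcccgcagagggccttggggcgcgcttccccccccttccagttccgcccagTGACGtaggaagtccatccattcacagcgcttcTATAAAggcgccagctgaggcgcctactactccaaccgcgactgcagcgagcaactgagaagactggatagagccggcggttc
Junb: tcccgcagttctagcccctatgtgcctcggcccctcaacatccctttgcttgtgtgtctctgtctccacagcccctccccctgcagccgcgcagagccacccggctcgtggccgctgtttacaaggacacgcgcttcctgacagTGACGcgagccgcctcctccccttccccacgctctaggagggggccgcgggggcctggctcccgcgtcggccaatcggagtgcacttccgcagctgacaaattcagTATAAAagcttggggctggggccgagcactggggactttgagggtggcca
Atf3: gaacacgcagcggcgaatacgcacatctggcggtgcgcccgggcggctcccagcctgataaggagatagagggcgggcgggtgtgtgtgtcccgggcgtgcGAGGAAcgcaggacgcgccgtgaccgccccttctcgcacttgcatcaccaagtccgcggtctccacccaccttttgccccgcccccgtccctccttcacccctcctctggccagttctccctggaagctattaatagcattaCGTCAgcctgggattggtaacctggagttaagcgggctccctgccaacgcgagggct
Fosb: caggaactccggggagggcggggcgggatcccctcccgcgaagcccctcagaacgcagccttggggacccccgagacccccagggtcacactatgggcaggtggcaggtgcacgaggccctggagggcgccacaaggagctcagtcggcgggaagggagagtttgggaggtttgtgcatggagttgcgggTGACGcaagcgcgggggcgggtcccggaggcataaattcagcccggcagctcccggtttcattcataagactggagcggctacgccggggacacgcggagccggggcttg
Batf3: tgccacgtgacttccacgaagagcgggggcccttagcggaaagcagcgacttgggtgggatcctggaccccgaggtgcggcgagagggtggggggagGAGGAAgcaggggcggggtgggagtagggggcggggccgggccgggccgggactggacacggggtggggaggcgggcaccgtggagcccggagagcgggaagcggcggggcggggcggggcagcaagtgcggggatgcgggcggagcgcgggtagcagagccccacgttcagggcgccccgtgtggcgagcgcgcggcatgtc

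The AP-1 word was in 0 of the 9 AP-1 gene promoters, against 7.00% of all 20150 promoters of protein-coding genes in the table. The full cAMP response element was likewise in 0 of 9, against 2.31% of all promoters, and the CArG box in 0 of 9, against 1.51%. With 9 sequences and shares this low, a count of 0 cannot show that these words are rarer at AP-1 genes. Only exact words inside the window were counted, so sites further upstream and variants were missed. The Jun window, for example, holds TGACATCA, which differs from TGACGTCA in 1 letter. The end TGACG, a word added after the sequences had been seen, was in 5 of 9 AP-1 gene promoters (55.6%), against 24.2% of all promoters. These were Fos with 2 copies, the first bases of which lie 129 and 66 bases upstream of the start, and Fosb, Junb, Batf and Atf3 with 1 copy each, 60, 106, 98 and 7 bases upstream. TATAAA was in 2 of 9, Fos and Junb, against 12.1% of all promoters. It began 33 bases upstream of the Fos start. In Junb it began at the RefSeq start itself, which lies 30 bp upstream of the annotated 5′ end used for the peaks. GAGGAA was in 2 of 9, Batf3 and Atf3, against 27.2%, and TTGCNNAA in 1 of 9, Jund, against 10.0%. The Jund window belongs to a RefSeq start 1210 bp upstream of the annotated start used for its peaks, so its words, found or not, describe a region away from that start. The words are letters in a window and show no binding.

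Of the 10 AP-1 genes, 8 were marked in unstimulated macrophages, against 39.4% of all protein-coding genes. These were Fos, Fosb, Fosl2, Jun, Junb, Jund, Batf and Atf3, while Fosl1 and Batf3 had no promoter peak in either replicate or in the lists made from both libraries. Among marked genes, the median promoter peak lay at the 79.5th percentile by fold for AP-1 genes and at the 69.2nd for all protein-coding genes. It was also broader: the median width was 1736 bp in replicate 1 and 3220 bp in replicate 2 for AP-1 genes, against 1012 and 1116 bp for all marked genes. The promoter peaks of Jun and Fos, 2 of 10 genes, lay in the upper 10% of the list in both replicates, against 6.40% of all protein-coding genes.

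**Figure D1:**
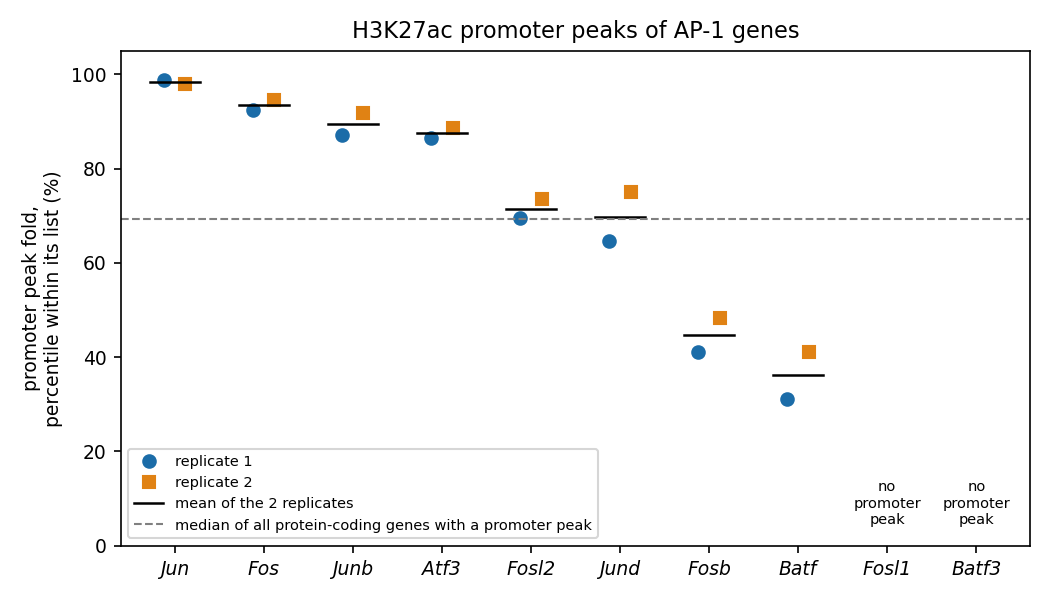
Percentile of the promoter peak's fold within its list (vertical axis, %) for each AP-1 gene (horizontal axis), with replicate 1 as circles, replicate 2 as squares, their mean as a bar and the median of all marked protein-coding genes (69.2) as a dashed line. Jun, Fos, Junb, Atf3 and, by a small margin, Fosl2 lie above the line in both replicates, Jund on either side of it, Fosb and Batf below it in both, and Fosl1 and Batf3 have no value.

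Jun, a core AP-1 subunit, carried the promoter peak of highest fold of the family. Its fold was 36.5 in replicate 1 and 34.2 in replicate 2, at ranks 354 and 564 of the lists, and its percentile averaged 98.4 ± 0.514 (SD, n = 2). This peak lay upstream of the start, with 644 of 2909 bp and 695 of 2962 bp within the 1 kb limit. Fos, the partner that gives AP-1 its classical heterodimer, had folds of 23.1 and 26.3, with a mean percentile of 93.6 ± 1.48. Junb, a Jun protein with a weaker activation domain, had folds of 18.2 and 22.6 at a mean percentile of 89.5 ± 3.17. Of the Junb peak in replicate 2, 833 of 4842 bp were within the 1 kb limit, and its summit lay outside it. Atf3, a stress-induced member that limits inflammatory gene expression in macrophages, had folds of 17.7 and 19.8 and a mean percentile of 87.5 ± 1.60. The replicate values of Jun and Fos overlapped with those of no other member, whereas those of Junb and Atf3 overlapped with each other.

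The other 4 marked members lay lower. Fosl2, also called Fra-2, had folds of 10.7 and 12.1 and a mean percentile of 71.5 ± 2.79. Jund, the Jun protein usually present in resting cells, had 9.46 and 12.6 with a mean percentile of 69.8 ± 7.37, and its replicate values enclosed those of Fosl2. Fosb, a Fos protein induced together with Fos, had 6.02 and 6.87 at 44.6 ± 5.18. Batf, which lacks an activation domain and pairs with Jun proteins and IRF factors, had 5.16 and 6.03 at 36.1 ± 6.98. The values of Fosb and Batf also overlapped. By these ranges the order was Jun, then Fos, then Junb with Atf3, then Fosl2 with Jund, and last Fosb with Batf. It describes 2 libraries under a single donor only, and the 2 Jund promoter peaks did not overlap each other.

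The width followed another order. The promoter peak was 3803 and 3479 bp wide at Atf3, 2909 and 2962 bp at Jun, and 2831 and 3513 bp at Fos. It was 1332 bp in replicate 1 and 4842 bp in replicate 2 at Junb, where the replicate 2 peak spans 2 peaks of replicate 1. At Fosl2 it was 2139 and 4191 bp, at Jund 1206 and 922 bp, at Batf 674 and 1186 bp and at Fosb 435 and 444 bp. Atf3, Jun and Fos were thus broad in both replicates and Fosb narrow in both, while the width at Junb and Fosl2 differed between the lists.

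At Jun, Junb and Atf3 the start lay in or at the edge of a short gap between high peaks. The 2 Jun promoter peaks, with folds of 26.8 and 36.5 in replicate 1 and of 30.7 and 34.2 in replicate 2, were separated by 277 and 282 bp without a peak, just upstream of the start at position 95052222. The start itself was inside the downstream peak, 79 and 23 bp from its edge. At Junb the RefSeq start lay inside a gap of 454 bp in replicate 1 and 227 bp in replicate 2, between an upstream peak of fold 18.2 and 22.6 and a downstream peak of fold 14.3 and 17.6. At Atf3 it lay in a gap of 431 and 355 bp, between an upstream peak of fold 11.7 and 17.9 and a downstream peak of fold 17.7 and 19.8. At Fos 1 peak spanned the start and reached 1588 and 2249 bp upstream and 1242 and 1263 bp downstream. The 5′ end base was inside a peak in both replicates for 4 of the 8 marked AP-1 genes (Fos, Fosl2, Jun and Batf), against 37.9% of all marked protein-coding genes.

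**Figure D2:**
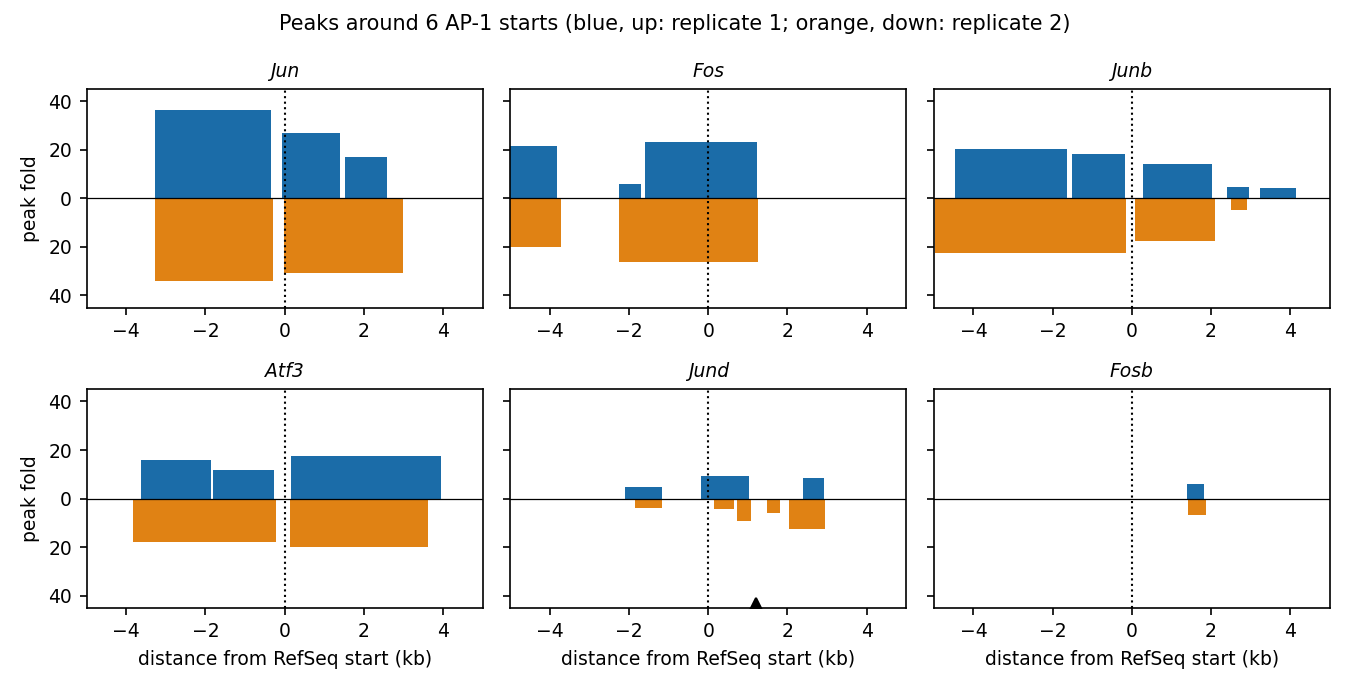
Peaks within 5 kb of the RefSeq start of 6 AP-1 genes, with distance along the gene's strand on the horizontal axis (kb), fold as bar height, replicate 1 upward and replicate 2 downward, the start as a dotted line and, at Jund, the annotated 5′ end as a triangle. High peaks stand on both sides of the starts of Jun, Junb and Atf3, 1 peak spans the Fos start, and at Fosb there is a peak only downstream.

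At 2 genes the call depended on which start was used. Atf3 has 3 annotated starts, and its 5′ end at position 191218039 lay in a stretch of 20274 bp in replicate 1 and 20138 bp in replicate 2 without a peak. Its promoter peaks stood 34931 bp further along the gene, at the start at position 191183108 and near the one at 191183340, and the RefSeq start lies 7 bp from the last of these. At Fosb the peak lay in an exon, with its summit 1557 and 1664 bp downstream of the 5′ end, and only 55 bp of it in replicate 1 and 14 bp in replicate 2 were inside the 1 kb limit. The Fosb 5′ end itself lay in a stretch of 7042 and 6908 bp without a peak. At the 5′ end alone 6 of the 10 AP-1 genes were therefore marked, without Fosb and Atf3, against 36.1% of all protein-coding genes.

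Jund was marked in both replicates by promoter peaks that did not overlap each other. The replicate 1 peak of fold 9.46 had its summit 345 bp upstream of the 5′ end, and the replicate 2 peak of fold 12.6 had its summit 1366 bp downstream in the exon. Each position nevertheless had a peak in both lists. Replicate 2 held a peak of fold 9.38 with its summit 307 bp upstream, and replicate 1 one of fold 8.43 with its summit 1362 bp downstream, just outside the promoter limit. The base of the annotated start was in no peak of either list, in a stretch of 1351 bp in replicate 1 and 411 bp in replicate 2. The 1001 bp around the Jund 5′ end were 68.3% G and C, a share that 6.66% of protein-coding genes reached, and whether base composition bears on the gap was not tested.

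Fosl1, also called Fra-1 and best known from proliferating and invasive cells, had no peak within 12364 bp of any of its starts in replicate 1 or 12363 bp in replicate 2. The nearest was the promoter peak of its neighbour Fibp, at folds of 10.7 and 10.2, and its 5′ end lay in a stretch of 26537 and 26360 bp without a peak. Batf3, which is needed for the development of cross-presenting dendritic cells, had its nearest peak 8824 and 8930 bp from a start, at folds of 18.9 and 17.6. Its 5′ end lay in a stretch of 21970 and 21760 bp without a peak.

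Distal peaks, those that touched no promoter of a protein-coding gene, were plentiful around most AP-1 genes. The 10 windows held 61 replicate 1 peaks of this kind that a replicate 2 peak overlapped, with a median of 5 per AP-1 gene, against 0 for all protein-coding genes. At least 5 were found at 7 of the 10 AP-1 genes, against 8.67% of all protein-coding genes. The threshold of 5 was chosen with the values known, and of the 7 genes Fosb, Jund and Batf had exactly 5. Of the 8 marked AP-1 genes 7 had at least 5, against 16.1% of all marked genes. Among all protein-coding genes no longer than Atf3, at 47.7 kb the longest of the family, 6.05% had at least 5. These are counts of replicate 1 peaks, and the replicate 2 peak that overlapped one could itself be a promoter peak. Counted as replicate 2 peaks that a replicate 1 peak overlapped, the total was 53 and the genes with at least 5 were 4 of 10 (Fos, Fosl2, Batf and Atf3, all of them marked), against 1756 of the 21938 protein-coding genes.

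**Figure D3:**
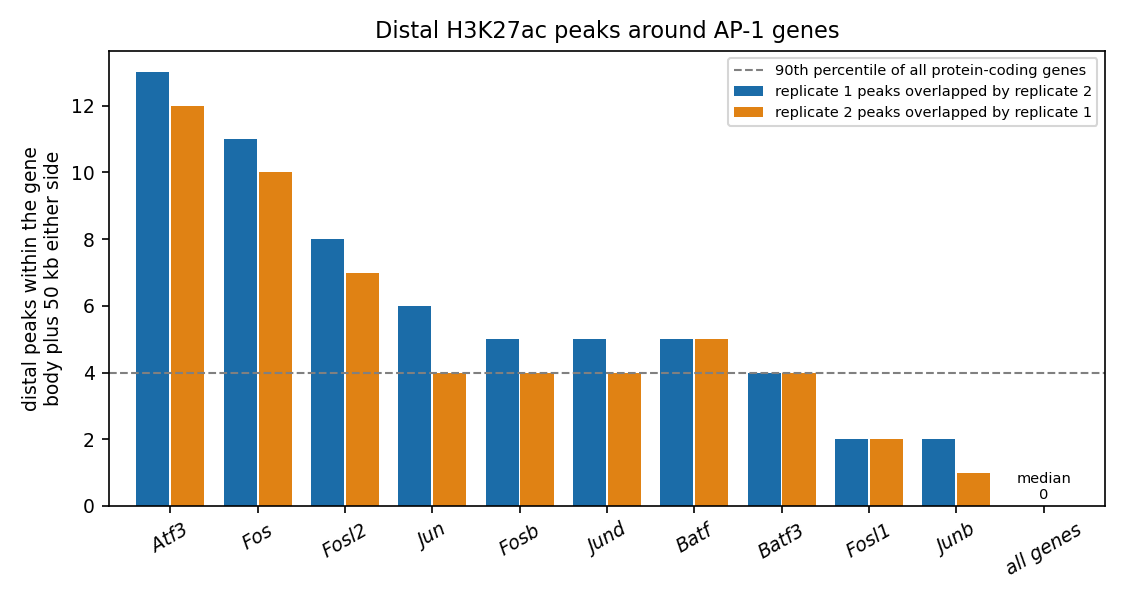
Number of distal peaks (vertical axis) in the window of each AP-1 gene, counted from replicate 1 (blue) and from replicate 2 (orange), with the 90th percentile of all protein-coding genes (4.00) as a dashed line and their median of 0 at the right. Atf3, Fos and Fosl2 stand clear of the line from both sides, Batf lies just above it at 5 in both counts, and Fosl1 and Junb lie under it.

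Peaks in these windows were found again in the other replicate about as often as elsewhere. In replicate 1 97 of 104 were overlapped by a replicate 2 peak (93.3%), against 91.3% of the whole list, and in replicate 2 87 of 92 were overlapped (94.6%), against 88.6%. The 7 and 5 that were not had folds of at most 5.33 and 6.37. The fold of the 61 distal peaks had a median of 6.88, the same as that of all 15069 distal peaks of both replicates. In the upper 10% of the replicate 1 list were 10 of the 61 (16.4%), against 9.78% of all distal peaks. These 10 lay in the windows of 5 AP-1 genes, against 10.1% of all protein-coding genes with such a peak, and 6 of the 10 lay in the Atf3 window. Those in the Fosl1, Jund and Batf3 windows were nearest to the starts of Tsga10ip, Pgpep1 and Nsl1. The Atf3 peak of fold 32.0 was nearest to that of Nenf, and the remaining ones were nearest to Fos or Atf3.

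Atf3 stood at the top, with 13 distal peaks of both replicates, a number that 0.438% of protein-coding genes reached. Its window of 147744 bp was the longest of the family and was set from the 5′ end at position 191218039, which had no peak. The RefSeq start lies 34706 bp from that 5′ end, and a window set from the RefSeq start was not counted. Peaks covered 28.6% of the Atf3 window in replicate 1 and 27.9% in replicate 2, as much as in 0.287% of protein-coding genes. The highest in replicate 1 lay in an intron of Atf3, with a fold of 34.4, a width of 6633 bp and its summit 16198 bp into the gene. In replicate 2 the same peak had a fold of 36.1 and a width of 7117 bp, with its summit 20292 bp into the gene. In both replicates this peak lies upstream of the RefSeq start at position 191183333, and so upstream of the Atf3 promoter peaks' starts. It is intronic only when the gene is counted from its 5′ end, and the distances below are counted from there too. Upstream of the 5′ end stood a peak 6741 bp away in an exon of the long noncoding RNA D730003I15Rik, with folds of 32.5 and 36.2. Further ones stood 13145 bp (23.6 and 26.8), 30876 bp (25.6 and 27.1) and 36364 bp away (22.5 and 23.1). A peak at the edge of the window, 51983 bp upstream, had folds of 32.0 and 33.7, but the nearest protein-coding start was that of Nenf. The intron peak and the upstream ones named before it, 5 in all, were nearest to Atf3 itself and had higher folds than the Atf3 promoter peak in both replicates.

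Fos followed with 11 distal peaks, a number that 0.843% of protein-coding genes reached, and a covered share of 17.3% and 16.1%. By their midpoints none lay in a gene, and Fos had the nearest protein-coding start to each. The highest stood 4648 bp upstream with folds of 21.4 and 20.1, close to those of the Fos promoter. A pair 18825 and 18121 bp upstream had folds of 16.2 and 12.4 in replicate 1 and of 13.1 and 16.1 in replicate 2, so that their order was not kept. Downstream of the gene a peak 16476 bp from the 5′ end had folds of 14.6 and 16.9. No promoter of another protein-coding gene lay in the Fos window with a peak. The distal peak 1876 bp upstream, with a fold of 6.02 in replicate 1, was part of the Fos promoter peak in replicate 2.

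Fosb and Fosl1, the Fos genes without a peak called at the 5′ end, differed in what lay around them. Fosb had its highest peak 6100 bp upstream of the 5′ end, with folds of 19.8 and 20.8, and a second 8635 bp upstream with 10.3 and 11.2, both nearest to Fosb. They had higher folds than the 6.02 and 6.87 of the peak in the gene. A Fosb distal peak 40415 bp downstream, with a fold of 5.68 in replicate 1, overlapped a promoter peak of Vasp in replicate 2. Fosl1 had 2 distal peaks, and neither had Fosl1 as the nearest protein-coding start. The higher stood 40445 bp upstream in an intron of the antisense gene 4930481A15Rik, with folds of 22.4 and 21.3, nearest to Tsga10ip. The other stood 14002 bp upstream with 4.99 and 6.37. Fosl2 had 8 distal peaks, of which 5 formed a group 56087 to 61898 bp downstream of the 5′ end with folds of 3.61 to 9.98 in replicate 1, nearest to Plb1. The highest Fosl2 distal peak of replicate 1 stood 23354 bp upstream with 11.9 and 11.1, close to the 10.7 and 12.1 of the promoter peak. In replicate 2 the highest was a peak of the downstream group, with a fold of 11.6 against 9.98 in replicate 1. Another Fosl2 distal peak, 3125 bp downstream with a fold of 5.32 in replicate 1, was part of the promoter peak in replicate 2.

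**Figure D4:**
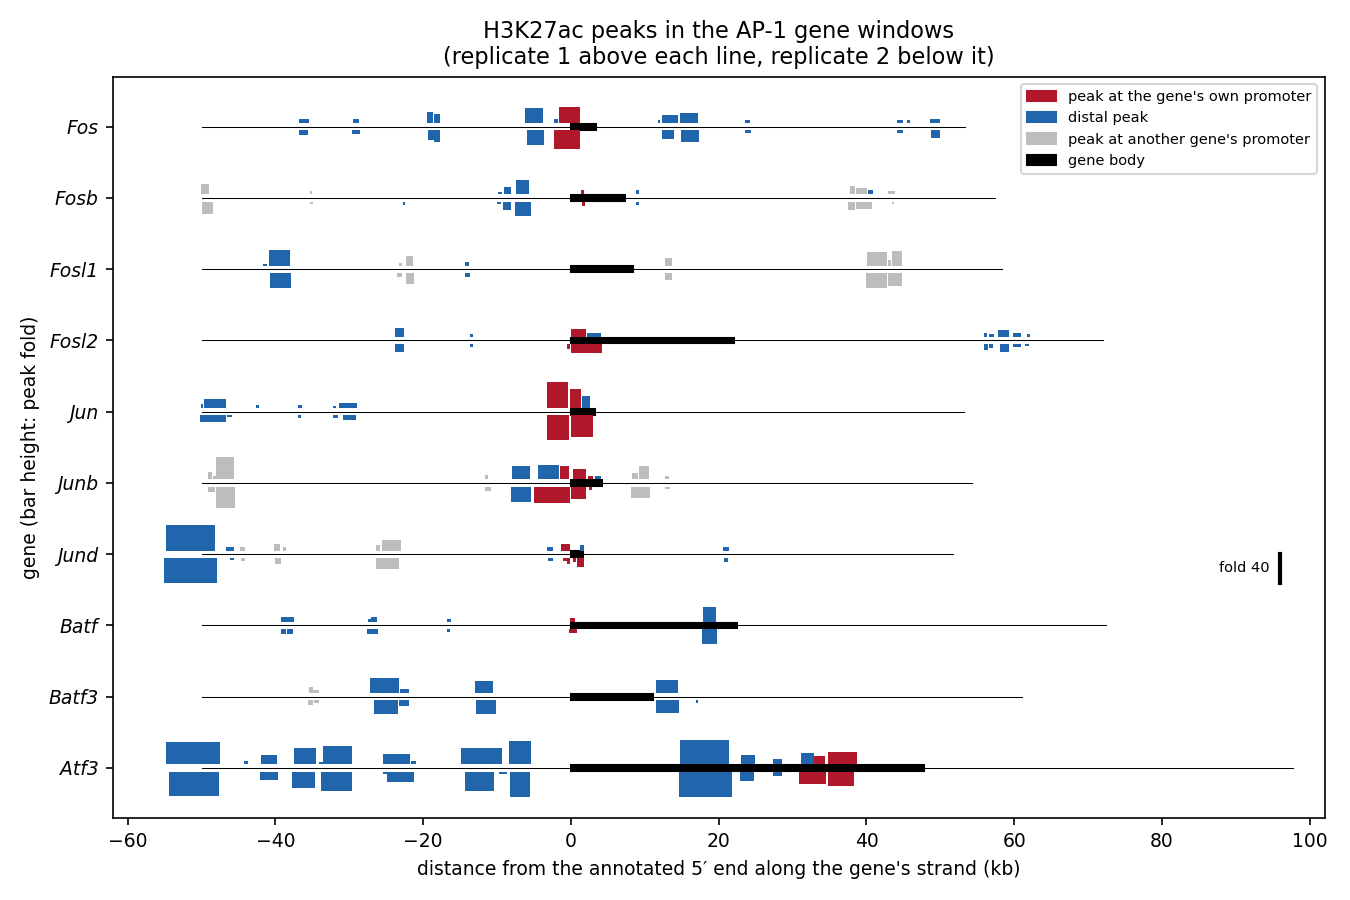
Peaks in the window of each AP-1 gene by distance from the annotated 5′ end along the gene's strand (kb), with replicate 1 above each line, replicate 2 below it, fold as bar height, and colours for own promoter, distal peaks and promoters of other genes. Atf3 and Fos show peaks over much of the window, Fosl1, Batf3, Atf3 and Fosb show a wide gap at the 5′ end, and the tall peak of Jund stands at the far left.

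The Jun genes had few distal peaks of high fold nearest to themselves. Jun had 6 distal peaks in the replicate 1 count and 4 in the replicate 2 count. Of the 6, 5 lay in introns of the antisense gene Junos from 29460 to 49984 bp upstream, the highest 47639 bp away with a fold of 12.8, against 9.53 for its counterpart in replicate 2. The sixth lay 1896 bp downstream in the Jun exon with a fold of 16.8 and was part of the promoter peak in replicate 2. Junb had 2, and the one 2686 bp upstream (fold 20.1) was likewise part of the replicate 2 promoter peak, whose summit stood 2667 bp upstream. The other, 6923 bp upstream, had folds of 18.2 and 21.3 and was nearest to Hook2. Junb also shares its window with 5 to 7 peaks at promoters of other genes, the highest of which, at Asna1 and Trir, had folds of 32.0 and 30.8. Jund had 5, and the highest by far stood 52549 bp upstream, at the edge of the window inside Pgpep1 and nearest to the start of that gene. Its folds were 36.3 and 35.3, and it was 6664 and 7079 bp wide. The other 4 Jund peaks had folds of 4.76 to 8.43 in replicate 1.

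Batf and Batf3 both had a high distal peak and a weak or missing promoter peak. At Batf a peak in an intron 18854 bp into the gene had folds of 20.3 and 21.6, against 5.16 and 6.03 at the promoter, and its summit was at the same base in both replicates. The other 4 Batf peaks lay upstream with folds of 3.69 to 6.71 in replicate 1. At Batf3 peaks stood 24963 bp upstream (20.6 and 19.1), 12436 bp upstream (17.6 and 18.6) and 13892 bp downstream (18.9 and 17.6), around a gene whose starts lay in none. The first of these lies in an intron of Nsl1, whose start is the nearest, and the second in an exon of Nsl1, with Batf3 as the nearest start. Batf3 and Atf3 are neighbours on chromosome 1, 61.4 kb apart. Their windows overlap but share 0 distal peaks of both replicates. Fos and Batf lie 209 kb apart on chromosome 12, and their windows do not meet.

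The sequences under the summits of 4 distal peaks are shown because they are the highest peaks of the Batf and Batf3 windows or carry the AP-1 word at Atf3 and Junb. Each is 200 bp around the replicate 1 summit on the forward strand of GRCm38.p6, with the same words in capitals. The Batf intron peak is at chr12:85705423-85705622, the Batf3 peak in Nsl1 at chr1:191072784-191072983, the Atf3 intron peak at chr1:191201741-191201940 and the Junb upstream peak at chr8:84985541-84985740.
Batf intron: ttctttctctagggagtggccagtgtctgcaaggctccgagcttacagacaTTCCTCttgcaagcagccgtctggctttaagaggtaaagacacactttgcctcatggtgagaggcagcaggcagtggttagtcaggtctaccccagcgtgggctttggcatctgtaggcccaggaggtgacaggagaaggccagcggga
Batf3 upstream: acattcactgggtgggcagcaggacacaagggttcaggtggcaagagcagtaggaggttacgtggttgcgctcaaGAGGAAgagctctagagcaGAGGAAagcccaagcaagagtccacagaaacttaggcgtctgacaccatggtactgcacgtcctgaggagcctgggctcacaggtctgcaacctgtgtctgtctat
Atf3 intron: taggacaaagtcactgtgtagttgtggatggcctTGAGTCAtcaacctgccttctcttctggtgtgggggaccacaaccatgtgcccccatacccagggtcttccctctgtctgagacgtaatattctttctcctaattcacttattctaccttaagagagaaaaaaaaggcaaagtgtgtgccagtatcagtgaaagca
Junb upstream: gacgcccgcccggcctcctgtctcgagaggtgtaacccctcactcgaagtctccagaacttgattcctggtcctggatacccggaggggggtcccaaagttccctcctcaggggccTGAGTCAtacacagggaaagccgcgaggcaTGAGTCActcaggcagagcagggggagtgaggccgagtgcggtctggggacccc

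The AP-1 word stood in 5 of the 61 distal summits (8.20%), against 6.21% of the 15068 distal summits of the whole list whose sequence has no unknown base. Besides the Atf3 intron peak, with 1 copy, and the Junb peak 6923 bp upstream, with 2, these were the Junb peak 2686 bp upstream and the Jun peak 32096 bp upstream with 1 each. The Fosl1 peak 14002 bp upstream held 2 copies. GAGGAA stood in 13 of the 61 (21.3%), against 20.2% of all distal summits. Both shares were near those of distal peaks at large. Sequences around replicate 2 summits were not searched, and at the Atf3 intron peak that summit, 20292 bp into the gene, lies outside the 200 bp shown.

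The other genes of the pathway were read through 4 lists of 72 genes. Of 17 other basic leucine zipper partners, 15 were marked (88.2%), with a median percentile of 91.4. The highest were Mafg, a small Maf protein (37.3 and 39.9), Atf4, the factor of the integrated stress response (35.8 and 42.4), Ddit3, its target also called CHOP (36.8 and 36.0), and Maf (30.3 and 31.8). Nrl, a photoreceptor factor, had no promoter peak, and Maff had one in replicate 1 alone, at fold 3.44. Jdp2, a repressor of AP-1 whose gene lies between Fos and Batf, had folds of 14.3 and 11.4. Of 24 kinases and phosphatases acting on AP-1, 19 were marked (79.2%), led by Map3k8, a kinase upstream of ERK (26.8 and 23.3), Gsk3b (21.7 and 22.3), Map3k1 (18.2 and 20.3) and Mapk14, which encodes p38 alpha (17.0 and 22.0). Mapk8, which encodes JNK1, and its kinase Map2k4 had none in either replicate, and neither had Mapk10.

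Of 17 factors that drive AP-1 genes or pair with AP-1 at shared sites, 13 were marked (76.5%), with Mef2d (32.0 and 39.4), Mef2a (29.4 and 30.3), Mef2c (28.4 and 25.8) and Mrtfa (21.7 and 22.8) at the top. Egr1, an immediate early gene, and Elk1, a partner of serum response factor, had none in either replicate, though the list made from both libraries held peaks of fold 4.45 and 3.80 there. Of 14 known AP-1 target genes, 8 were marked (57.1%), among them Vim (33.2 and 32.5), Plau (23.1 and 25.1), Plaur (23.1 and 22.1) and Hmox1 (18.2 and 21.8). Il1b, Hbegf, Mmp3 and Mmp13 were among the 6 with no promoter peak, and Il1b had 5 distal peaks of both replicates in its window. All 4 lists had a larger marked share than the 39.4% of all protein-coding genes, as the AP-1 genes did. The median fold percentile of their marked genes was 91.4, 79.0, 80.8 and 88.0 in the order given, and 94.3 for the macrophage markers. The 79.5 of the AP-1 genes was thus above that of the kinases and phosphatases only. The median number of distal peaks was 5 for the AP-1 genes and 2, 2, 4 and 3 for the lists in the order given. For the macrophage markers it was also 5.

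**Figure D5:**
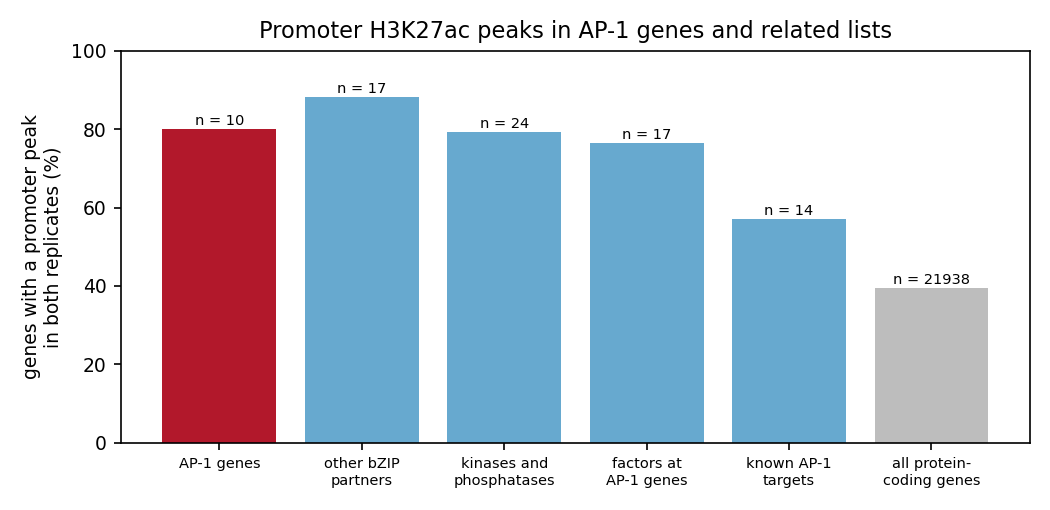
Share of genes with a promoter peak in both replicates (vertical axis, %) for the AP-1 genes, the 4 pathway lists and all protein-coding genes, with the number of genes above each bar. The AP-1 genes stand at 80.0%, the known AP-1 targets at 57.1% and all protein-coding genes at 39.4%.

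The genes whose H3K27ac pattern was most like that of Jun were Zfp335, Gse1 and Ctsa, at distances of 2.59, 2.74 and 2.84 over 6 percentiles (promoter fold, promoter width and number of distal peaks in each replicate). Jun stood at 98.8 and 98.0 for fold, 92.1 and 91.8 for width and 95.1 and 90.1 for distal peaks, and Zfp335 at 96.7 and 98.7, 92.4 and 90.4, and 95.1 and 90.1.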

How the data were processed

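H3K27ac chromatin immunoprecipitation and sequencing was measured in 2 samples, and 4 deposited peak lists on mm10 were used: 1 per replicate, called on that sample alone, and a replicated and a pooled pseudoreplicated list, both made from the 2 libraries together, per the deposited text files. Peak folds are linear ratios deposited by the authors, the deposited q-value is on a −log10 scale, and the summit is an offset given by the authors. The aligner, peak caller and read depth are not given in the sources used here. No list was scaled to another, so folds were ranked within a list only.

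Positions are 1-based on GRCm38, the build of mm10, with gene models of GENCODE M21. The promoter limit was 1 kb either side of any annotated start, the window was the gene body plus 50 kb, and peaks were shared from an overlap of 1 bp. Distal peaks touched no promoter limit of any protein-coding gene. Promoter sequences came from the RefSeq table and summit sequences from the assembly. Python 3 with numpy was used, and the overlap and ranking steps were tested on simulated peaks. All results are descriptions of 1 group, with SD over the 2 replicates and no test. The alternatives were other windows, ranks, q-value and overlap limits, the lists made from both libraries, and each replicate alone. The members, lists and words were chosen with earlier results of these data known. All 10 members were named, with the 4 listed genes of highest fold and up to 4 without a promoter peak from each list, the cell type markers, neighbours with the highest peak of a window, and the 3 genes most like Jun. Maff, Jdp2 and genes that hold or neighbour a peak were named after their values were seen.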

Additional observations from a re-analysis of the deposited data

How the results depend on the processing

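Of 157 values recomputed under alternatives, 123 stayed within 1.5 times the count or within 1 SD of the percentile, and 34 moved. The 123 include the fold percentiles of single genes from each replicate alone. These are the 2 values behind the SD, so they stayed within 1 SD by construction and say nothing on stability. The number of marked AP-1 genes was 8 in each alternative except the 500 bp limit (7, without Fosb) and the 5′ end alone (6, without Fosb and Atf3). The 2.5 kb limit and each replicate alone only relax the definition, so they could not lower this number. The replicated and pooled lists, of 32877 and 32909 peaks, come from the same 2 libraries and are not separate checks. The median percentile of the marked AP-1 genes, 79.5, became 86.8 ranked by width and 87.5 with the 500 bp limit. It was 82.4 in both the replicated and the pooled list. Ranked by width, single genes moved to 13.1 (Fosb), 90.9 (Fosl2), 92.0 (Jun), 82.7 (Junb), 55.7 (Jund), 47.9 (Batf) and 95.1 (Atf3). Fos stayed within 1 SD at 93.1, so that Atf3 and Fos came before Jun. In both the replicated and the pooled list, the fold percentile was 53.1 for Fosb, 76.0 for Fosl2 and 44.9 for Batf. Leaving out a replicate gave a median percentile of 77.9 to 81.8 and 56 to 67 distal peaks. The 61 distal peaks became 35 with 25 kb flanks, and single genes then had 7 (Fos), 1 (Fosl1), 3 (Fosl2), 1 (Jun), 3 (Jund), 2 (Batf) and 8 (Atf3). Only Fos and Atf3 then had at least 5. With 100 kb flanks Fos had 19, Batf3 11 and Atf3 25. With each peak given only to the gene of the nearest start, Fosb had 4, Fosl1 0, Fosl2 3, Junb 1, Jund 2 and Batf3 2. Only Fos, Jun, Batf and Atf3 then had at least 5. The matching shares of all protein-coding genes were not counted for these settings. Leaving out a replicate gave 1 to 3 distal peaks at Junb. The causes were not tested, apart from smaller or larger windows holding fewer or more peaks by construction. The marked counts of the 4 pathway lists stayed within 1.5 times, though the 2.5 kb limit and each replicate alone could not lower them either. No paired analysis was possible because the study has 1 group. With 2 libraries that share a donor entry and no depth given, a missing peak shows only that no call was made.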
